A study of Mus musculus with 6 samples.

Results

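The genes described are 9 enzymes that make, consume or clear AMP and adenosine in the mouse heart, picked by gene name out of 54532 genes in the deposited table: the nucleotidases Nt5c1a, Nt5c2 and Nt5e, adenosine kinase (Adk), adenosine deaminase (Ada), the AMP deaminase Ampd3 and the adenylate kinases Ak1, Ak3 and Ak4. They were measured by RNA sequencing of myocardium from hypertrophic hearts of wild type C57BL/6 mice aged 18 weeks. The 3 control hearts had received adeno-associated virus of serotype 9 coding for the fluorescent protein EGFP (AAV9-EGFP). The other 3 had received AAV9-anti-miR-199a TuDs, the same serotype coding for tough decoys (TuDs), RNAs that hold a microRNA away from its targets. All 6 hearts were therefore hypertrophic and all carried AAV9, with no untreated heart among them. The labels leave out the vectors' promoter, the animals' sex, the cause of the hypertrophy and whether each sample is 1 animal. Every SD below therefore measures the spread between samples. Every SE comes from the limma fit described below and also draws on the variance of the other tested genes.

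In a working heart muscle cell, adenylate kinases pass phosphate between ATP, ADP and AMP, and AMP accumulates when ATP is spent faster than it is made. AMP leaves this pool by 2 routes: deamination to IMP by AMP deaminase, or removal of its phosphate by a 5'-nucleotidase, which yields adenosine. Adenosine, a signal that slows the heart and widens coronary vessels, is returned to AMP by adenosine kinase or converted to inosine by adenosine deaminase.

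The decoys were directed at miR-199a, whose mature arms are shown with the seed, bases 2 to 8, in capitals (RefSeq, GRCm38.p6).
miR-199a-5p: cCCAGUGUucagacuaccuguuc
miR-199a-3p: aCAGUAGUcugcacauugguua
Matches to these seeds (ACACTGG or CACTGGA for the 5p arm, ACTACTG or CTACTGA for the 3p arm, on the transcript strand) were looked for in the longest 3' UTR that GENCODE M21 annotates for each gene, and 3 of the 9 genes had one. Among 9552 tested genes with an annotated 3' UTR (median length 1263 bases), 34.1% had a match to either arm. The matches in the 3 genes are printed with the site in capitals, on the strand of the gene in GRCm38. They show which transcripts could pair with the microRNA. CACTGGA and CTACTGA need no match to base 8 of the seed. Their final A lies opposite the first base of the arm, with which it does not pair.
Ak4, miR-199a-5p, chr4:101464470-101464498 (+): tgtatggaaatCACTGGActaatgagatg
Ak4, miR-199a-3p, chr4:101466289-101466317 (+): aaagctgacatCTACTGAaacattaaaat
Ak4, miR-199a-3p, chr4:101466654-101466683 (+): tgagaacttgtACTACTGAatttgcgaatt
Nt5e, miR-199a-5p, chr9:88371253-88371281 (+): tccaaagcacaACACTGGttcttattaac
Nt5c2, miR-199a-5p, chr19:46884208-46884237 (-): aagggagttggACACTGGAccaggatgcag
The Nt5c2 match lies outside the gene as the deposited table bounds it (chr19:46886831-47015153). The 3' UTR of Nt5c1a is 68 bases long and held no such letters. A match describes letters in a sequence and was not tested as a binding site.

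Values are FPKM divided by a size factor for each library (normalised FPKM), which are per length and can be set side by side between genes. Reads recovered from the deposited values came to 18024041 to 18224978 per control library and 15231319 to 16651455 per TuD library. Transcripts of 4 Y-linked genes summed to 8.32 to 9.59 FPKM in control hearts and to 12.5 in TuD replicate 3, but to 0.0254 and 0.00711 in TuD replicates 1 and 2, so that 2 of the 3 TuD libraries stand apart, which no label accounts for. Across the 10460 genes with an FPKM of at least 1 in at least 3 libraries, log2 fold changes (TuD minus control) correlated with log10 gene length at -0.386. All 8 of the cardiomyocyte markers checked were past that minimum. Their summed normalised FPKM was 27810 to 29330 in control hearts and 30870 to 37499 in the TuD group, without overlap. Of these 8, 4 were higher in TuD hearts (limma adjusted p under 0.05) and none lower, beside 15.0% of all tested genes passing as higher. In bulk tissue, fewer cells of a type and less RNA per cell cannot be told apart.

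Of the 9 enzymes, 8 could be fitted and Ada fell below the minimum FPKM. Nt5c1a and Ak4 were lower in TuD hearts at an adjusted p under 0.05 (limma, Benjamini-Hochberg over all tested genes), none was higher and 6 did not pass. Over all tested genes 29.3% passed in either direction and 14.3% passed as lower. The genes were chosen with this comparison known, so their counts and differences are a description and carry no test. The median log2 fold change of the 8 was -0.26, beside +0.01 over all tested genes. In 5 of the 8 (Nt5c1a, Ampd3, Ak1, Ak3 and Ak4) the highest TuD value lay below the lowest control, as for 24.4% of tested genes. In Nt5c2 the lowest TuD value lay above the highest control, as for 23.5% (47.9% in either direction), and in Nt5e and Adk the groups overlapped.

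**Figure D1:**
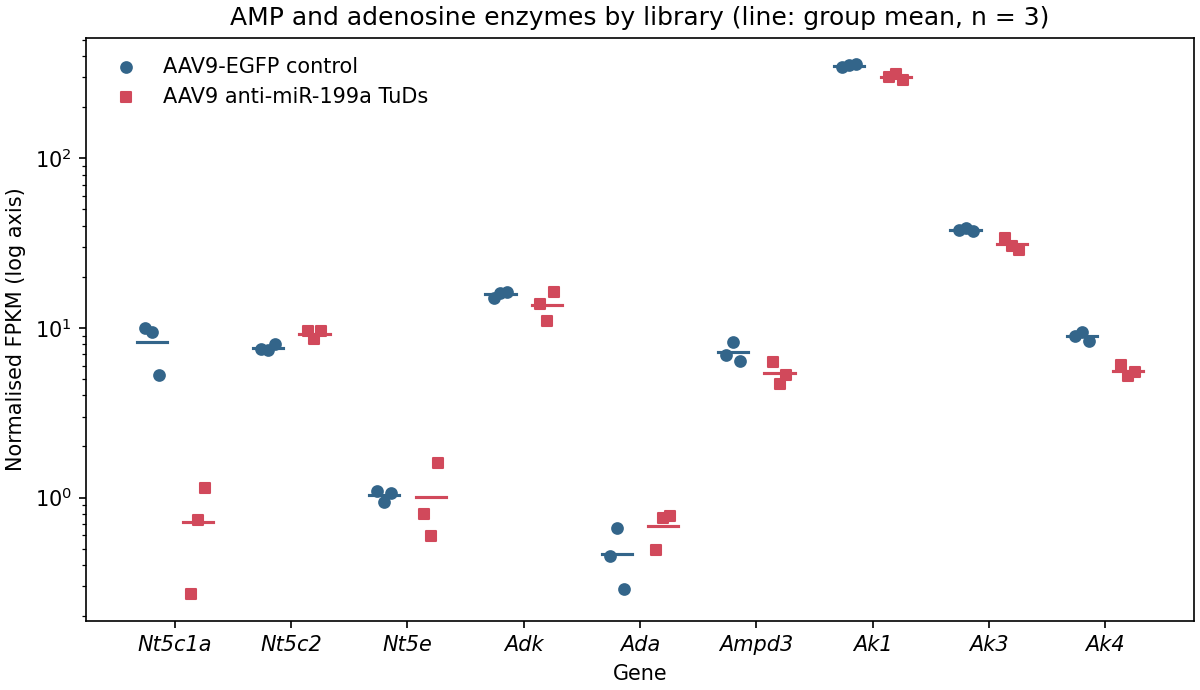
Normalised FPKM (log axis) of the 9 enzymes in each library, controls as circles and TuD hearts as squares, with the group mean as a line (n = 3). Nt5c1a separates the groups most widely, with 5.30 the lowest control and 1.13 the highest TuD value, while Ak1 exceeds every other enzyme in both groups.

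The cytosolic nucleotidase gene Nt5c1a (ENSMUSG00000054958, chr4:123201504-123216275 in mm10, + strand) encodes cN-IA, the enzyme of striated muscle that turns AMP into adenosine inside the cell. It measured 10.03, 9.50 and 5.30 normalised FPKM in control replicates 1, 2 and 3, and 0.269, 0.737 and 1.13 in TuD replicates 1, 2 and 3. The controls were themselves spread by nearly as much as their lowest value, and each of the TuD libraries was still below that lowest control. These levels rested on 231, 229 and 123 reads in control hearts and on 5, 13 and 23 in the TuD libraries. The group means were 8.28 ± 2.59 and 0.713 ± 0.433 (SD, n = 3), so that the TuD hearts held 8.61% of the control level. The log2 fold change was -2.87 ± 0.31 (SE) on the log2(normalised FPKM + 0.5) scale, which understates the change of a gene this low in the TuD group. With a pseudocount of 0.1 it was -3.48, and with limma-voom on the recovered reads -3.65. None of the transcript's stretches of 50 bases occurs in another annotated gene, and no exon of another gene overlaps it.

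Because a ratio within a library does not depend on how libraries are scaled against each other, Nt5c1a was also set against its family member Nt5c2. Its FPKM was 1.34, 1.28 and 0.661 times that of Nt5c2 in the 3 controls and 0.0279, 0.0858 and 0.118 times in the 3 TuD hearts. Against Adk, which works in the opposite direction on the same substrate pair, the ratio was 0.529 ± 0.181 for control and 0.0520 ± 0.0283 for TuD libraries (SD, n = 3). In the controls Nt5c1a stood level with Nt5c2 and Ak4, and in TuD hearts it stood at the level of Nt5e and Ada.

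The tested protein-coding genes whose levels over the 6 libraries were most like those of Nt5c1a were Ap2a1 (Pearson r = 0.996), Smug1 (0.995), Stat5b (0.994), Brat1 (0.994) and Tle3 (0.993), out of 9586 compared. The 6 points fall into the 2 groups, which sets most of each coefficient. The 5 genes differed far less in size, with log2 fold changes of -0.52 (Stat5b) to -0.35 (Tle3). Ap2a1, an adaptor subunit of clathrin-coated vesicles, measured 21.5 normalised FPKM in control hearts and 15.4 in TuD hearts.

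Nt5c2 encodes the cytosolic nucleotidase cN-II, which prefers IMP and GMP over AMP (ENSMUSG00000025041, chr19:46886831-47015153, - strand). It measured 7.48, 7.43 and 8.03 normalised FPKM in control hearts and 9.64, 8.59 and 9.58 in TuD replicates 1, 2 and 3. It was the fitted enzyme with the higher TuD values, all 3 of them above the controls, and its log2 fold change was +0.26 ± 0.10 (SE), which did not pass. The direction turned when libraries were rescaled to TPM (-0.11), under which the median over all tested genes was -0.33. In GENCODE M21, exons of other genes on the opposite strand, Ina among them, overlap Nt5c2, and the strand setting of the counting is not given in the sources used here.

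Nt5e encodes CD73, the ecto-5'-nucleotidase that makes adenosine from AMP outside the cell (ENSMUSG00000032420, chr9:88327197-88372092, + strand). It was scarce, at 1.09, 0.942 and 1.07 normalised FPKM in control hearts and 0.800, 0.595 and 1.61 in TuD replicates 1, 2 and 3. The control range lay inside the TuD range, with TuD replicate 3 the highest of all 6 libraries, and the log2 fold change was -0.09 ± 0.24 (SE). Its sign turned without TuD replicate 2 (+0.11), after the length trend was removed (+0.07) and with a covariate for Y-linked transcripts (+0.46). CD73 is found on endothelial cells and fibroblasts in many tissues. The 5 endothelial markers, all past the FPKM minimum, summed to 161 to 199 in control hearts and to 193, 214 and 145 in TuD replicates 1, 2 and 3. The 6 fibroblast markers, also all past it, summed to 118 to 128 and to 125, 160 and 177. Of the 6, 2 passed as higher and 1 as lower, and no endothelial marker passed. The part of these cells in the level of Nt5e was not tested.

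Adk encodes adenosine kinase, which returns adenosine to AMP (ENSMUSG00000039197, chr14:21052574-21448569, + strand). Its levels were 14.9, 16.1 and 16.3 normalised FPKM in control hearts and 13.9, 11.01 and 16.2 in the TuD replicates. TuD replicate 3 lay within the control range and replicates 1 and 2 lay below it. The log2 fold change was -0.21 ± 0.14 (SE), which did not pass as reported but did with TPM (-0.59). With TPM the median over all tested genes was -0.33. Replicates 1 and 2 are the libraries without Y-linked transcripts, and with the covariate for these, which rests the estimate on TuD replicate 3, the log2 fold change was +0.04. Relative to Nt5c2 in the same library, the control values of Adk were 1.996, 2.17 and 2.04 and its TuD values 1.44, 1.28 and 1.69, with no overlap.

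Ada encodes adenosine deaminase, which turns adenosine into inosine, and had the lowest mean level, although in TuD hearts its range overlapped those of Nt5c1a and Nt5e (ENSMUSG00000017697, chr2:163726584-163750239, - strand). It measured 0.450, 0.657 and 0.289 normalised FPKM in control hearts and 0.491, 0.760 and 0.780 in TuD hearts, on 11 to 26 reads per library. The groups overlapped, and in a fit with no FPKM minimum the log2 fold change was +0.29, which did not pass. Adenosine deaminase is abundant in lymphocytes, and the 5 lymphocyte markers were all below FPKM 1 in every library, with none at 0 throughout, summing to 0.229 to 0.590 in control hearts and to 0.606 to 0.960 in TuD hearts. Whether lymphocytes contribute to the level of Ada was not tested.

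Ampd3 encodes an AMP deaminase, the enzyme that commits AMP to IMP (ENSMUSG00000005686, chr7:110768206-110812405, + strand). It measured 6.97, 8.26 and 6.38 normalised FPKM in control hearts and 6.29, 4.67 and 5.30 in TuD hearts. All TuD values lay below the controls, although TuD replicate 1 came within 0.1 of control replicate 3. The log2 fold change was -0.38 ± 0.14 (SE) and did not pass as reported, but did with TPM (-0.74). The TPM median over all tested genes was -0.33. Red blood cells are known for this isoform. The 5 erythroid markers, all past the FPKM minimum, summed to 1142 to 1604 in control hearts and to 1374, 2604 and 3292 in TuD replicates 1, 2 and 3, and 2 of them passed, both higher. Their part in the level of Ampd3 was not tested. Of the other AMP deaminase genes, Ampd2 measured 1.39 ± 0.220 and 1.58 ± 0.484 (SD, n = 3). The skeletal muscle isoform Ampd1 had no read in any library, where 3 reads would give an FPKM of 0.0436 to 0.0589. Exons of Rnf141 and B430319F04Rik on the opposite strand overlap Ampd3 over 195 and 196 of its 5627 bases. Those of Gm47282 on the same strand overlap it over 83, so the reads of Ampd3 could hold some from these genes.

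The adenylate kinases Ak1 and Ak3 were the most abundant of these enzymes. Ak1, the cytosolic form of muscle (ENSMUSG00000026817, chr2:32621758-32635058, + strand), measured 345, 354 and 359 normalised FPKM in control hearts and 303, 316 and 290 in TuD hearts. Ak3, the mitochondrial matrix enzyme that uses GTP (ENSMUSG00000024782, chr19:29020833-29047961, - strand), measured 38.0, 38.9 and 37.3 in control hearts and 34.1, 30.4 and 28.8 in TuD hearts. In both genes every TuD value lay below every control value, by little compared with Nt5c1a. Their log2 fold changes were -0.22 ± 0.10 and -0.29 ± 0.10 (SE), neither past the threshold as reported. Both passed with TPM (-0.61 and -0.67) and with quantile normalization (-0.58 and -0.37). Over all tested genes the TPM median was -0.33. Exons of Cdc37l1 and 1700018L02Rik on the opposite strand overlap Ak3 over 430 and 283 of its 3120 bases, so its reads could hold some of theirs.

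Ak4, a matrix protein of the same family, was the other enzyme to pass (ENSMUSG00000028527, chr4:101419277-101466995, + strand). It measured 8.998, 9.45 and 8.41 normalised FPKM in control hearts and 6.05, 5.18 and 5.54 in TuD replicates 1, 2 and 3. The gap between the groups exceeded the range within either, at means of 8.95 ± 0.518 and 5.59 ± 0.440 (SD, n = 3). The TuD mean was 62.4% of the control mean, and the log2 fold change was -0.64 ± 0.11 (SE). Of the 8 fitted enzymes, Ak4 is the one with matches to both arms of miR-199a, printed above. Its 3' UTR is 3328 bases long, beside a median of 1263 over tested genes with an annotated 3' UTR. Among those genes 25.1% had a match to the 5p arm and 14.8% to the 3p arm. The part of these matches in the level of Ak4 was not tested.

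The 3 adenylate kinases did not keep their proportions. As a ratio to Ak3, Ak4 gave 0.237, 0.243 and 0.226 in control libraries against 0.178, 0.170 and 0.192 in TuD libraries, without overlap. Its share of the summed FPKM of Ak1, Ak3 and Ak4 was 2.24 ± 0.142% and 1.65 ± 0.155% (SD, n = 3). The ratio of Ak3 to Ak1 overlapped between the groups, at 0.108 ± 0.00347 and 0.103 ± 0.00865. Of the stretches of 50 bases in Ak4 transcripts, 10.2% also occur in the processed pseudogene Ak3l2-ps. The pseudogene had 15, 20 and 13 reads in control hearts and 2, 2 and 4 in the TuD libraries, beside 743 to 867 and 348 to 429 for Ak4. How reads that match both were counted is not given in the sources used here.

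The promoters of the 2 enzymes that passed are shown to let their sequences be compared, from 250 bases before to 50 after the start (RefSeq, GRCm38.p6, on the gene's strand), with the GC box GGGCGG or its reverse complement in capitals.
Nt5c1a, chr4:123201235-123201534 (+): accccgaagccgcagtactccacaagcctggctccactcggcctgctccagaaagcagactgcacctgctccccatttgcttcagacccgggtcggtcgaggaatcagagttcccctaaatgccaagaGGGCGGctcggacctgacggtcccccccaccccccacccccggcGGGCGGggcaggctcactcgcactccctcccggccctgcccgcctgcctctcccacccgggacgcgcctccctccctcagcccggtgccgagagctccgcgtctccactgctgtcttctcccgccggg
Ak4, chr4:101419039-101419338 (+): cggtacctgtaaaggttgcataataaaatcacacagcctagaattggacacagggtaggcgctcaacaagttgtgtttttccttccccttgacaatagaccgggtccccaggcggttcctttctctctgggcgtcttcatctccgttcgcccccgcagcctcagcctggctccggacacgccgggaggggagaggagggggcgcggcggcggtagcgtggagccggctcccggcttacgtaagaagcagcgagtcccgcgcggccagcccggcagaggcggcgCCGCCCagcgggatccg
Searched on both strands, Nt5c1a held 2 GC boxes and Ak4 1, a motif in 35.7% of 32851 promoters of this length. Neither held the E-box CACGTG (7.15% of promoters), the hypoxia response core ACGTG, which the E-box contains (19.6%), the estrogen-related receptor half-site AAGGTCA (4.72%), a MEF2-like motif (3.69%) or the TATA box TATAAA (13.6%). RefSeq lists 3 further Ak4 starts nearby, and the last of them, chr4:101419453-101419752, holds CACGTG.

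Ordered by mean level in the controls, Ak1 (353 normalised FPKM) was followed by Ak3 (38.1), Adk (15.8), Ak4 (8.95), Nt5c1a (8.28), Nt5c2 (7.65), Ampd3 (7.20), Nt5e (1.03) and Ada (0.465). From Ak4 to Ampd3 each gene's range over the control libraries overlapped that of the next, so their order is not resolved. In the TuD hearts the first 3 places were the same and Nt5c2 (9.27) came next, above Ak4 (5.59) and Ampd3 (5.42), whose ranges overlapped. Nt5e (1.00), Nt5c1a (0.713) and Ada (0.677) then followed with overlapping ranges. Nt5c1a thus stood among Ak4, Nt5c2 and Ampd3 in one group and among Nt5e and Ada in the other. Ak1 held 80.1% of the summed level of the 9 genes in control hearts and 81.8% in TuD hearts.

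Gene length bears on these values because short genes had higher fold changes. The 200 tested genes nearest in length to Nt5c1a (1220 bases) had a median log2 fold change of +0.36, opposite in sign to its own -2.87. Around Ak4 (4646 bases) that median was -0.02, around Ampd3 (5627 bases) -0.15, around Nt5e (8602 bases) -0.18 and around Adk (8526 bases) -0.16. Around Ak1 (2593 bases) it was +0.05, around Ak3 (3120 bases) +0.04 and around Nt5c2 (4475 bases) -0.03. The part of gene length in each enzyme's value was not tested beyond the fit without the trend. Removal of each library's trend with length gave -3.21 for Nt5c1a, -0.57 for Ak4, -0.29 for Ak1 and +0.32 for Nt5c2, all past the threshold, and -0.06 for Adk.

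**Figure D2:**
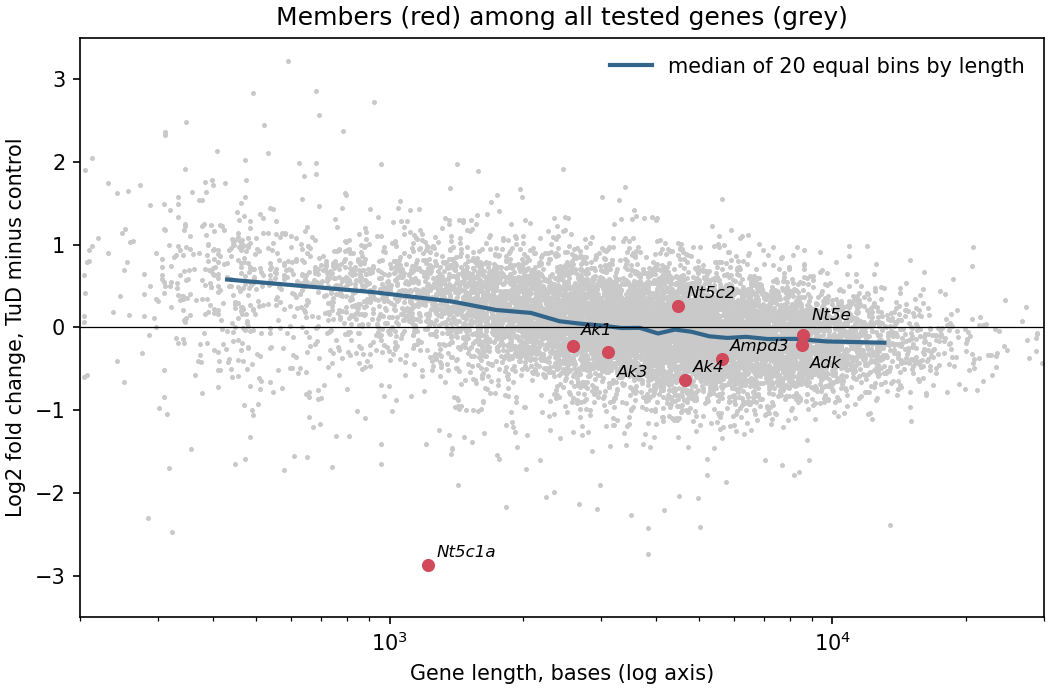
Log2 fold change (TuD minus control) of every tested gene against gene length in bases (log axis), with the median of 20 equal bins as a line and the 8 fitted enzymes in red; 84 tested genes lie outside the axes. Nt5c1a, at 1220 bases, lies far below genes of its length, where the median is +0.36.

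Of 63 other genes of purine metabolism listed by role, 40 could be tested, and 7 rose, 7 fell and 26 did not pass. Over all tested genes 15.0% passed as higher and 14.3% as lower, and these shares also stand beside each count by role below. Each such count rests on 1 to 9 tested genes. The median log2 fold change of the 40 was -0.01, near that of all genes. When rescaled to TPM the list held 1 higher and 19 lower genes, beside 442 higher and 4215 lower of all 10460 tested. The median log2 fold change was then -0.35 in the list and -0.33 over all tested genes. Of the 23 not tested, 3 (Ampd1, Entpd8 and Uox) had no read in any library.

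Of 5 other adenylate kinase genes listed 1 could be tested, and it rose, opposite in direction to Ak4. This gene, Ak6, a nuclear kinase, measured 2.48 ± 0.582 in control hearts and 4.81 ± 0.528 normalised FPKM in TuD hearts (SD, n = 3; log2 fold change +0.85 ± 0.16 SE, limma adjusted p = 0.00845). All its TuD values lay above the controls.

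Among the other nucleotidases 2 of 7 fell and 1 rose. Nt5dc3, a protein with a nucleotidase domain, fell from 14.8 ± 2.43 to 9.56 ± 0.818 normalised FPKM (SD, n = 3; -0.60 ± 0.13 SE, limma adjusted p = 0.0143; 0.0622 with the Y-linked covariate). Nt5dc2 fell with a log2 fold change of -0.43 (adjusted p = 0.0353), a call that leaving out control 2, control 3, TuD 1 or TuD 3 ended (adjusted p of 0.123, 0.0982, 0.0743 and 0.0678). Nt5c, a cytosolic enzyme that favours deoxynucleotides, rose at the edge of the threshold (+0.56, adjusted p = 0.0493). That call ended without any 1 library other than TuD replicate 1 (0.0760 to 0.140) and without the length trend (0.381).

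Enzymes on the cell surface and in the secretory pathway went both ways, with 1 of 6 up and 1 down. Entpd1, which encodes CD39, the enzyme that makes AMP from ATP outside the cell, rose from 3.77 ± 0.512 to 5.70 ± 1.21 normalised FPKM (SD, n = 3; +0.53 ± 0.16 SE, limma adjusted p = 0.0424). It no longer passed without any single library (0.0543 to 0.124). Entpd5, of the endoplasmic reticulum, fell from 29.1 ± 2.92 to 21.1 ± 0.823 (-0.45 ± 0.11 SE, adjusted p = 0.0167). Its adjusted p came to 0.0532 on leaving out control 1, to 0.0553 on leaving out TuD 1 and to 0.112 on fitting the Y-linked covariate.

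No tested adenosine receptor or gene of the purine nucleotide cycle passed. The receptor gene of highest level was Adora2a, a receptor through which adenosine widens coronary vessels, at 5.20 ± 0.744 and 5.88 ± 0.737 normalised FPKM (SD, n = 3; limma adjusted p = 0.407). Adssl1, the muscle adenylosuccinate synthase that leads IMP back towards AMP, measured 105 ± 8.49 and 101 ± 2.41 (adjusted p = 0.783; 0.0336, lower, with TPM). Of 3 tested nucleoside transporters 1 fell, the equilibrative transporter Slc29a2 (6.21 ± 0.533 to 4.25 ± 0.784; -0.51, adjusted p = 0.0328). Leaving out control 1, 2 or 3 gave an adjusted p of 0.0991, 0.0865 and 0.0654, and leaving out TuD 2 gave 0.0512. Of the genes listed for the hydrolase that frees adenosine from S-adenosylhomocysteine and for its relatives, neither of the 2 tested passed. Ahcyl1, a relative of that enzyme, stood at 11.4 ± 0.944 and 10.8 ± 1.52 (limma adjusted p = 0.671, and 0.0457, lower, with TPM). The median log2 fold change over all tested genes was -0.33 with TPM.

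In purine salvage and breakdown 3 of 7 tested genes rose and none fell, beside 15.0% of all tested genes passing as higher and 14.3% as lower. Hprt, which rebuilds IMP and GMP from free bases, rose from 29.8 ± 3.19 to 48.3 ± 8.29 normalised FPKM (SD, n = 3; +0.68 ± 0.14 SE, limma adjusted p = 0.0115). Pnp, which splits inosine and guanosine, rose from 2.09 ± 0.151 to 3.57 ± 0.430 (+0.65 ± 0.12 SE, adjusted p = 0.00842), and Gda, guanine deaminase, from 1.18 ± 0.415 to 2.39 ± 0.510 (+0.80, adjusted p = 0.0267). With TPM none of the 3 passed (0.190, 0.126 and 0.0825). Hprt is short, at 1289 bases, and did not pass without the length trend (0.159). Leaving out control 1, control 2, TuD 1 or TuD 3 also ended the call of Gda (0.0532, 0.0728, 0.0614 and 0.0581).

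In de novo purine synthesis 3 of 9 tested genes fell and 1 rose, beside 14.3% of all tested genes passing as lower and 15.0% as higher. Atic, which completes IMP, fell from 4.82 ± 0.149 to 2.97 ± 0.198 normalised FPKM (SD, n = 3; -0.62 ± 0.11 SE, limma adjusted p = 0.00603) and Gart, which acts earlier in the chain, from 10.04 ± 0.435 to 6.43 ± 1.06 (-0.61 ± 0.13 SE, adjusted p = 0.0107; 0.1003 with the Y-linked covariate). Ppat, the first committed step, fell by less certain values (6.08, 3.95 and 3.32 in the controls against 2.74, 2.33 and 2.71; adjusted p = 0.0411), and it did not pass without any 1 library other than control replicate 3 (0.0549 to 0.111). Impdh2, which turns IMP towards GMP, rose from 11.2 ± 0.457 to 15.3 ± 1.18 (+0.43 ± 0.10 SE, adjusted p = 0.0166). It came to 0.0657 and 0.0571 on leaving out control 2 and control 3, to 0.0888 with the Y-linked covariate and to 0.729 with TPM. Of the named genes of the wider list, Atic and Ak6 passed under every one of the 20 alternatives that kept them.

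**Figure D3:**
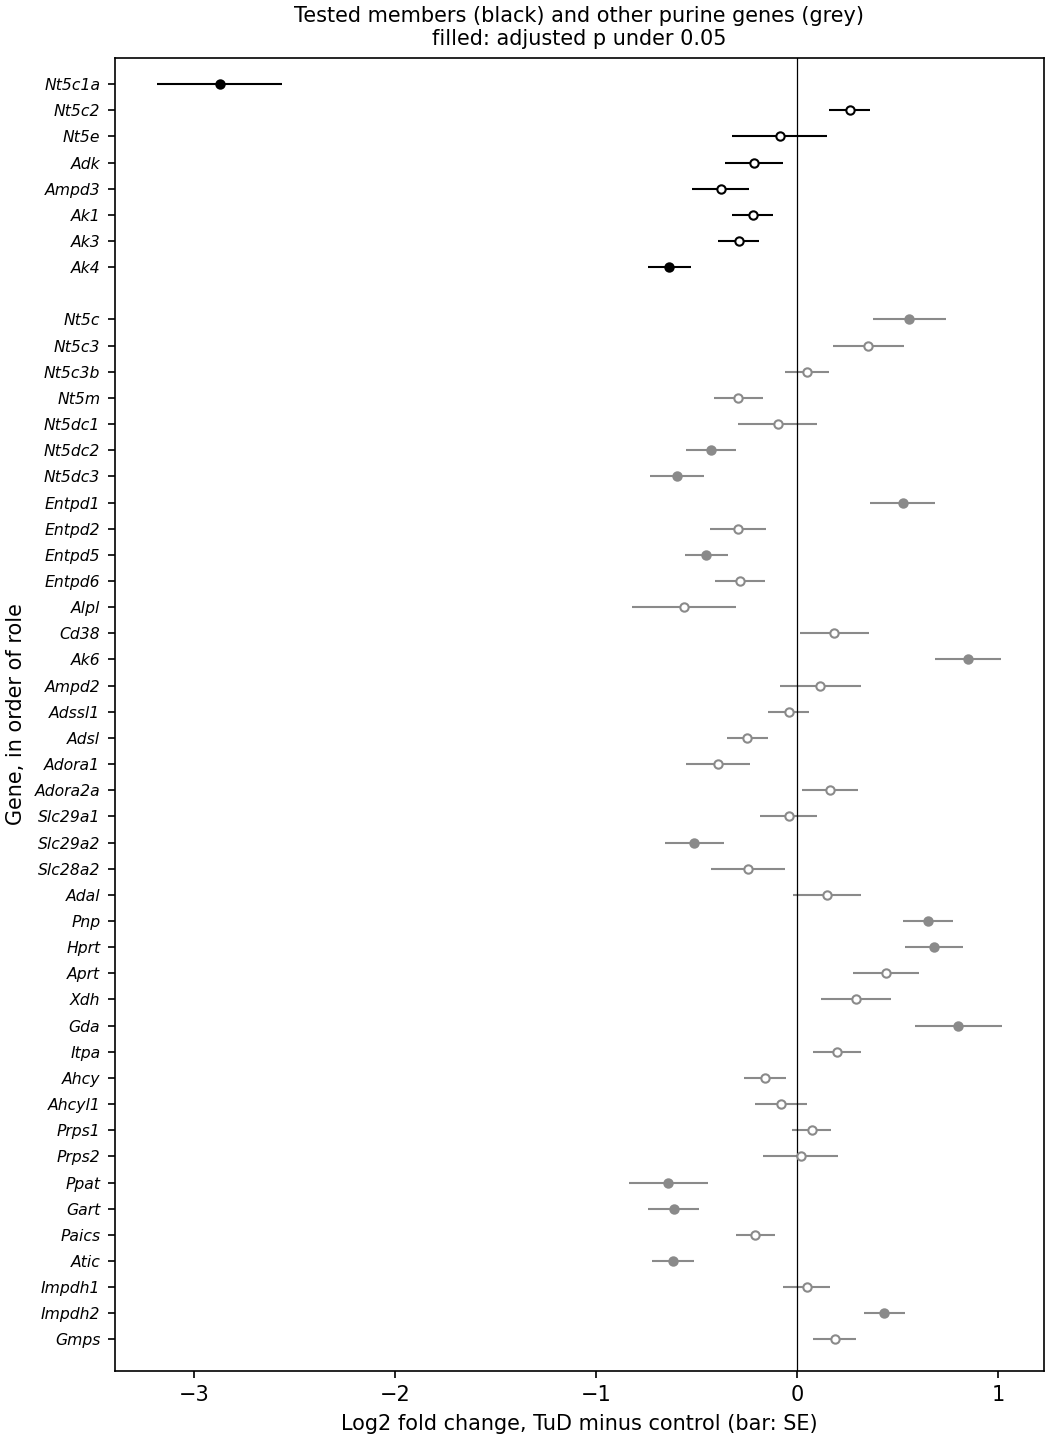
Log2 fold change (TuD minus control) with its SE for the 8 fitted enzymes (black) and the 40 other purine genes tested (grey), in order of role; filled points had an adjusted p under 0.05. Nt5c1a, at -2.87, lies apart from all other genes drawn, which range from -0.64 to +0.85.

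The 2 enzymes that passed did so under every alternative run. These alternatives reuse the same libraries, so they add no test of the difference. Nt5c1a met the FPKM minimum through its controls, since TuD replicates 1 and 2 measured 0.269 and 0.737 normalised FPKM. Nt5c1a ranged from -3.65 to -2.38 and Ak4 from -0.99 to -0.57 over 21 alternatives, 6 of which left out 1 library each. The -2.38 came with the Y-linked covariate, which rests the estimate on TuD replicate 3. That replicate had the highest Nt5c1a of the TuD group, at 1.13 normalised FPKM, and replicates 1 and 2 are those without Y-linked transcripts. The part of this split in the level of Nt5c1a was not tested. The plot of log2 fold changes by processing shows Nt5c2, Nt5e and Adk as the genes that reach both sides of 0.

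**Figure D4:**
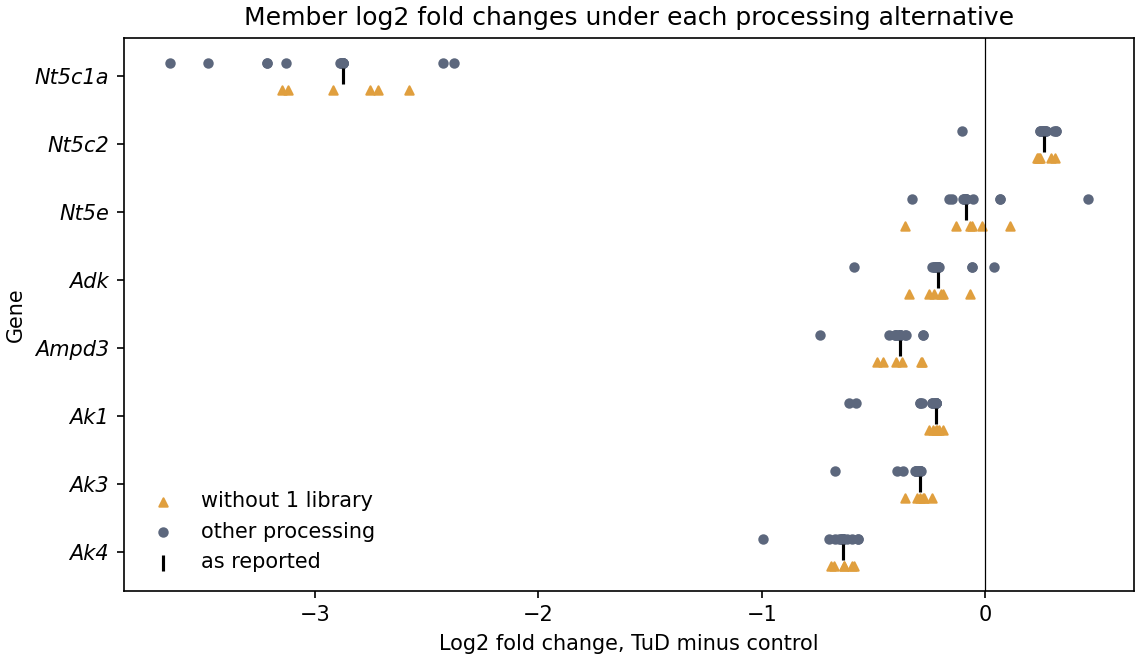
Log2 fold change (TuD minus control) of each fitted enzyme as reported (bar), with 1 library left out (triangles) and under other processing (circles). Nt5c1a stays at or below -2.38 and Ak4 at or below -0.57, while Nt5e spans -0.36 to +0.46.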

How the data were processed

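The authors deposited FPKM values per gene and the gene length; the submitters' processing notes list HISAT2 2.0.5, featureCounts 1.5.0-p3 and mm10. Annotation release and strand setting are not given in the sources used here. Multiplied by gene length, 100% of FPKM values above 0 fell within 0.05 of a whole read. The authors' divisors were 0.943 to 1.06 of the read totals so recovered. Size factors (median of ratios, 0.985 to 1.02), by which FPKM was divided, used genes at 1 or more in every library; this choice replaced all genes above 0 after both counts of passing genes (3063 and 3008) were seen. Genes at FPKM 1 or more in 3 libraries were fitted with limma 3.58.1 (eBayes with trend, 2 groups) on log2(value + 0.5), in R 4.3.3, with Python 3.11.15, and adjusted by Benjamini-Hochberg over 10460 genes. The pipeline was tested on simulated data, which held no trend of fold change with gene length and no split within the TuD group. The members, lists, motifs and tests were chosen with earlier results of these data known. Named were all members, up to 4 passing genes of each role of the wider list (otherwise the most abundant), and the 5 genes most like Nt5c1a. One gene of the wider list is not reported here. Samples were grouped by the labels alone. GENCODE M21 matched all 9 members by identifier. For Nt5c2 its exons cover 11037 bases, beside a deposited length of 4475. The level of Nt5c2 beside other genes, and the ratios to it, rest on the deposited length. The marker lists for atrial, smooth muscle, macrophage, adipocyte and skeletal muscle cells are given with the other observations. Alternatives are given in the closing section.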

Additional observations from a re-analysis of the deposited data

How the results depend on the processing

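Of the 8 fitted enzymes, 2 passed as reported, 6 with TPM and 4 with quantile normalization, all lower. Without the length trend 4 passed, 3 lower and 1 higher (Nt5c2). Of the wider purine list 14 of 40 tested genes passed as reported, 8 of 60 with no minimum and 8 of 26 when FPKM 5 was asked for. Of the same 40 genes, 8 passed with the Y-linked covariate and 7 to 11 without 1 library each. The length trend removed and the replicate block together, an alternative added after the data were seen, gave 8. Of all 10460 tested genes 3063 passed, and 4657 with TPM (442 higher, 4215 lower), 3154 with quantile normalization and 2524 without the length trend. In the same genes 1180 passed with the Y-linked covariate, 1984 with length trend and block together, and 1639 to 3309 without 1 library each. With no minimum 1966 of 22702 genes passed, and at FPKM 5 the count was 2252 of 5600. Size factors over all genes above 0, also added later, gave 3008. The sign turned for Nt5c2 with TPM (-0.11), for Adk with the Y-linked covariate (+0.038), and for Nt5e without the length trend (+0.066, also with the block, +0.066), with the Y-linked covariate (+0.46) and without TuD replicate 2 (+0.11, in a range of -0.36 to +0.11 without 1 library each). It turned for Adora2a with TPM (-0.19) and the Y-linked covariate (-0.032), and for Ahcyl1 without the length trend (+0.048, also with the block, +0.048), with the Y-linked covariate (+0.090) and without TuD replicate 2 (+0.030, in a range of -0.16 to +0.030). The cause of these changes was not tested. Same-numbered samples deviated together little (correlations 0.0637, 0.0882 and -0.0554), beside -0.161 to 0.0934 for differently numbered ones. With 3 libraries per group these values cannot settle whether the numbers pair samples, and the reported fit did not pair them. With the replicate block 2 enzymes, 14 genes of the wider list and 2661 of all genes passed. The planned count models other than voom were not run, because the deposited unit is FPKM. Depth limits Ada, at 11 to 26 reads per library, and Nt5c1a in the TuD group, at 5 to 23.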

Other observations

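Markers of other cells were summed as normalised FPKM in the same libraries. The 4 adipocyte markers, of which Cfd alone was tested and rose, summed to 0.0684 to 0.820 in the controls and to 3.62 to 10.6 in the TuD hearts, without overlap. The 5 macrophage markers summed to 135 to 157 and to 144 to 275, the 5 smooth muscle and pericyte markers to 124 to 168 and to 124 to 239, and the 4 atrial markers to 122 to 368 and to 154 to 214, all with overlap. The 5 skeletal muscle markers, among them Ckm, which the heart also makes, and Myh4, which had no read in any library, summed to 699 to 803 and to 571 to 618, without overlap. Of these 5, 2 were tested, and 1 was higher and none lower. The part of these cells in the levels of the 9 enzymes was not tested.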
